A study of Mus musculus with 6 samples.

Results

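Extracellular matrix genes were followed on spotted arrays of mouse kidney RNA: Col1a1, Col1a2, Fn1, Lum, Tnc, Lamc1, Lama4, Matn2 and Ccn5. They were chosen by name, as collagen, laminin and matrix glycoprotein genes, and every probe of each was taken. They hold 21 probes among the 15114 that carry 1 gene name, and 9 genes among 9107. Male Swiss albino mice of 8 to 10 weeks received amodiaquine at 120 mg/kg, Sulfodoxine-Pyrimethamine (SP below) at 300 mg/kg of sulfodoxine and 15 mg/kg of pyrimethamine, both drugs at those doses, or the vehicle DMSO. There were 4 mice per group, housed for 24 h after dosing, and each array set labelled cDNA from 25 µg of treated kidney RNA against that of vehicle kidneys in the other dye. Each treatment has 2 deposited files with the dyes exchanged in the labels. Whether an array carried RNA of 1 mouse or of a pool is not given in the labels, so spreads between arrays may be technical.

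The extracellular matrix fills the space between cells and holds tissues together. In the kidney it forms the basement membranes under tubule and capillary cells and the sparse interstitial matrix around vessels and tubules. Col1a1 and Col1a2 encode the chains of type I collagen, the main fibre of connective tissue. Lum encodes lumican, a small leucine-rich proteoglycan that binds collagen fibrils. Laminin chains are encoded by Lamc1, the gamma chain shared by most laminins, and by Lama4, an alpha chain typical of vessel walls. Fn1 encodes fibronectin, which links matrix to integrin receptors on cells. Matn2 encodes matrilin-2, an adaptor between matrix fibres, whereas tenascin-C (Tnc) and Ccn5 are matricellular proteins, which act on cells more than they bear load. Matrix genes are followed in kidney because their accumulation is the hallmark of fibrosis. In a whole-kidney sample, fewer cells of a type and less RNA per cell cannot be told apart.

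What a file holds at a given spot had to be established first. A spotted array is printed in blocks, here 48 of 20 rows by 24 columns, and software lays a grid on each block before reading it. In a block whose grid is displaced, every value belongs to a neighbouring spot. Both dyes were in register, meaning that they matched the files of other treatments best at no shift and matched each other, in 14 and 16 of 48 blocks of the amodiaquine files. The SP files had 30 and 4 such blocks, and the files of both drugs together 27 and 2. Of the foreground values of the second SP file, 36.9% (Cy3) and 34.4% (Cy5) also occurred in the first, against 0.0911% and 0.122% for amodiaquine. For both drugs together the shares were 41.9% and 28.2%. The amodiaquine files are therefore treated as 2 arrays, and the SP files and those of both drugs as 1 scan each, read with different grids and labelled in opposite directions. For these, ratios are given as Cy5 over Cy3 with no treated direction. Values "as read" are those deposited at the spot, and "realigned" values are a reading added after the values had been seen. For it, each dye image of a block was moved to match best the mean of all other images of that block, with the shift most images share as origin. This reference differs from that of the register count, so the shifts can differ: realigning left both dyes in place in 27 and 33 blocks of the amodiaquine files, 36 and 8 for SP, and 37 and 9 for both drugs. In the kidney check, proximal tubule markers had a median brightness rank of 0.797 over 10 probes and ribosomal protein probes one of 0.781 over 145, with 0.46 for all named probes. If names were laid out by spot number instead, these medians were 0.48, 0.498 and 0.456, so the reordered names were used.

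The 21 probes separated into a small bright group and a larger dim one. Brightness rank places the background-corrected intensity of a spot among all spots of that scan and dye, from 0 to 1, and spots at or under background tie between about 0.12 and 0.17. Brightness also depends on the probe, so ranks describe spots and not an order of expression between genes. Averaged over 4 scans (both amodiaquine arrays and the better placed file of the others) and both dyes, 7 probes ranked above 0.70. They were Lama4 at 0.975, Ccn5 at 0.974, Matn2 probe 1 at 0.905, Lum at 0.888, Tnc probe 1 at 0.853, Fn1 probe 1 at 0.826 and Lamc1 probe 1 at 0.737. Probes of a gene are numbered here from its brightest. The other 14 probes had mean ranks between 0.276 and 0.621. The cut of 0.70 thus lies in a gap of these same ranks. Lamc1 probe 1, the lowest above it, ranked higher than 86.8% of all named probes. A signal-to-noise ratio of at least 2 in both dyes, as deposited, was reached by 3 of the 21 probes on each amodiaquine array, where 8.81% and 6.52% of all named probes reached it. In the first SP file 5 probes did (7.6% of named probes), and in the second only 1 (5.09%). For both drugs together the counts were 6 (7.83%) and 1 (4.62%). After realignment the amodiaquine arrays held 5 and 3 such probes (10.2% and 7.1% of named probes). The SP files then held 5 and 4 (8.3% and 7.19%), and the files of both drugs 7 and 5 (9.13% and 7.91%).

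**Figure D1:**
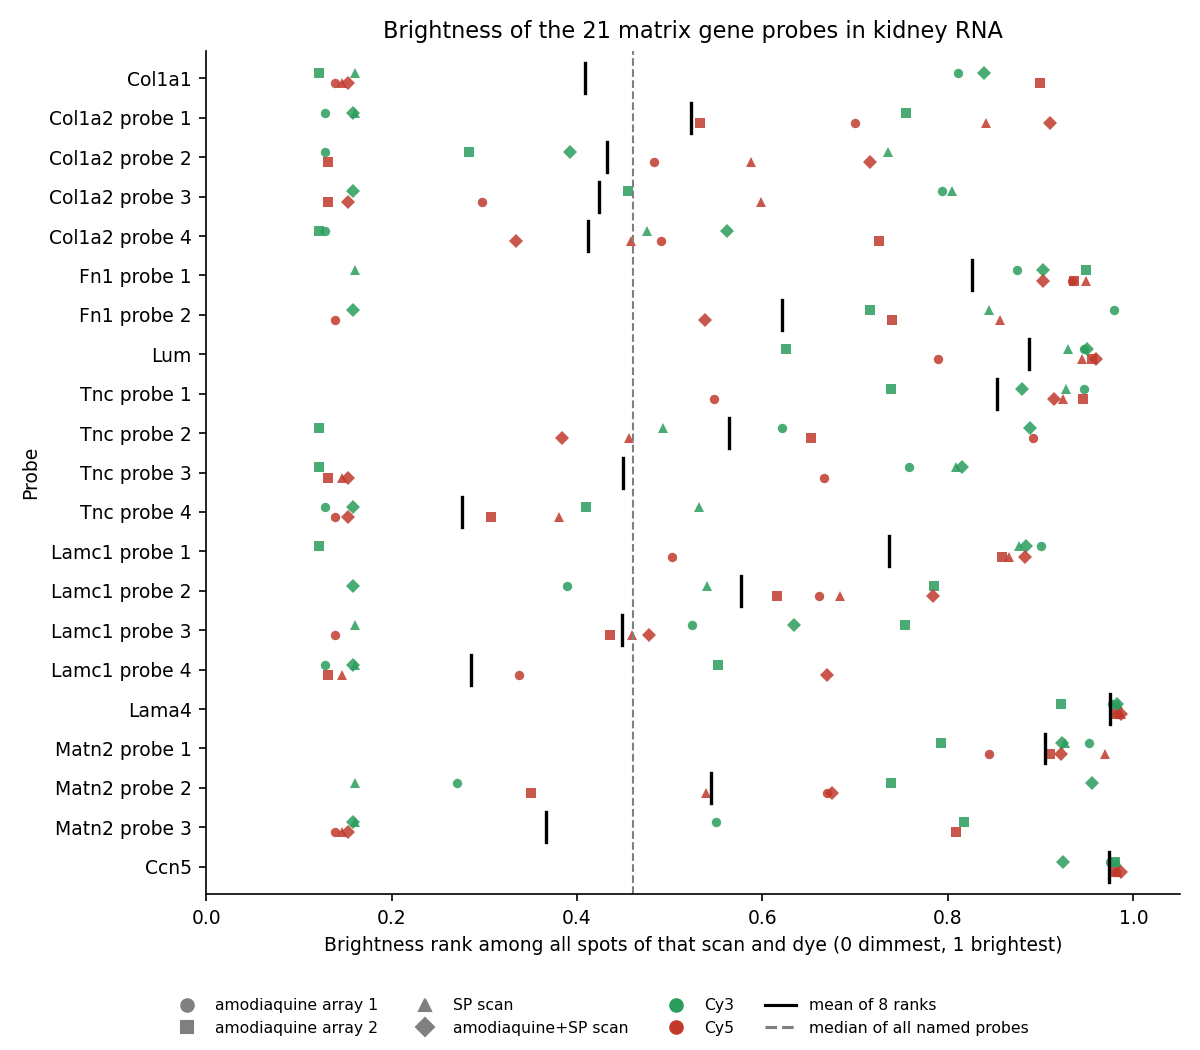
Brightness rank (x axis, 0 to 1, no unit) of each of the 21 probes (y axis), with 1 point per scan (marker) and dye (green Cy3, red Cy5), the mean of the 8 ranks as a black bar and the median of all named probes, 0.46, as a dashed line. Lama4 and Ccn5 lie above 0.92 in every scan and dye, while each Col1a2 probe spreads from under 0.17 to over 0.70.

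The laminin chains showed how unequal probes of related genes could be. Lama4, in block 6, had foreground intensities of 7988 in Cy3 and 19470 in Cy5 on amodiaquine array 1. On array 2 they were 2787 and 22713. The SP scan gave 12902 and 19807, and the scan of both drugs 13471 and 24606. Its signal-to-noise ratio was 16.4 and 31.7, 4.35 and 28.0, 15.1 and 18.6, and 16.3 and 30.6 in the same order. Lama4 was thus above background in both dyes on all 4 scans, with Cy3 on amodiaquine array 2 the low value. Lamc1 had 4 probes from 1 sequence record. Lamc1 probe 1, in block 21, reached a signal-to-noise ratio of 3.73 in Cy3 and 0.33 in Cy5 on amodiaquine array 1, and of 0 and 2.60 on array 2. It had 2.22 and 1.66 in the SP scan and 2.49 and 1.56 in the scan of both drugs. Each scan thus held 1 dye of Lamc1 probe 1 under 2. The remaining Lamc1 probes lay in blocks 42, 41 and 34, with mean ranks of 0.577, 0.448 and 0.286, and none reached 2 in either dye on these 4 scans, leaving aside spots whose recorded background was 0.

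Among matricellular genes, Ccn5 was bright throughout, and its block, 25, was in register on all 4 scans. Foreground values of Ccn5 were 7162 in Cy3 and 19248 in Cy5 on amodiaquine array 1 and 8898 and 22810 on array 2. They were 12818 and 16416 in the SP scan and 4422 and 23570 in the scan of both drugs. Signal-to-noise was at least 9.86 in both dyes of the first 3 scans, and 4.15 in Cy3 and 23.6 in Cy5 of the last. The Cy3 value with both drugs was the lowest of the 8. Tnc had 4 probes from 1 record. Tnc probe 1, in block 3 and in register on all 4 scans, had signal-to-noise of 5.69 in Cy3 and 0.23 in Cy5 on amodiaquine array 1. It had 1.74 and 10.3 on array 2, 3.72 and 3.33 in the SP scan, and 3.12 and 3.21 with both drugs. The dyes of Tnc probe 1 thus differed on both amodiaquine arrays, in opposite senses, and were alike on the others. Tnc probe 2 (block 18) passed 2 only in Cy5 of amodiaquine array 1, at 6.11, and in Cy3 with both drugs, at 2.82. Tnc probes 3 and 4 (blocks 26 and 23) did not pass 2 in any of the 6 files.

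**Figure D2:**
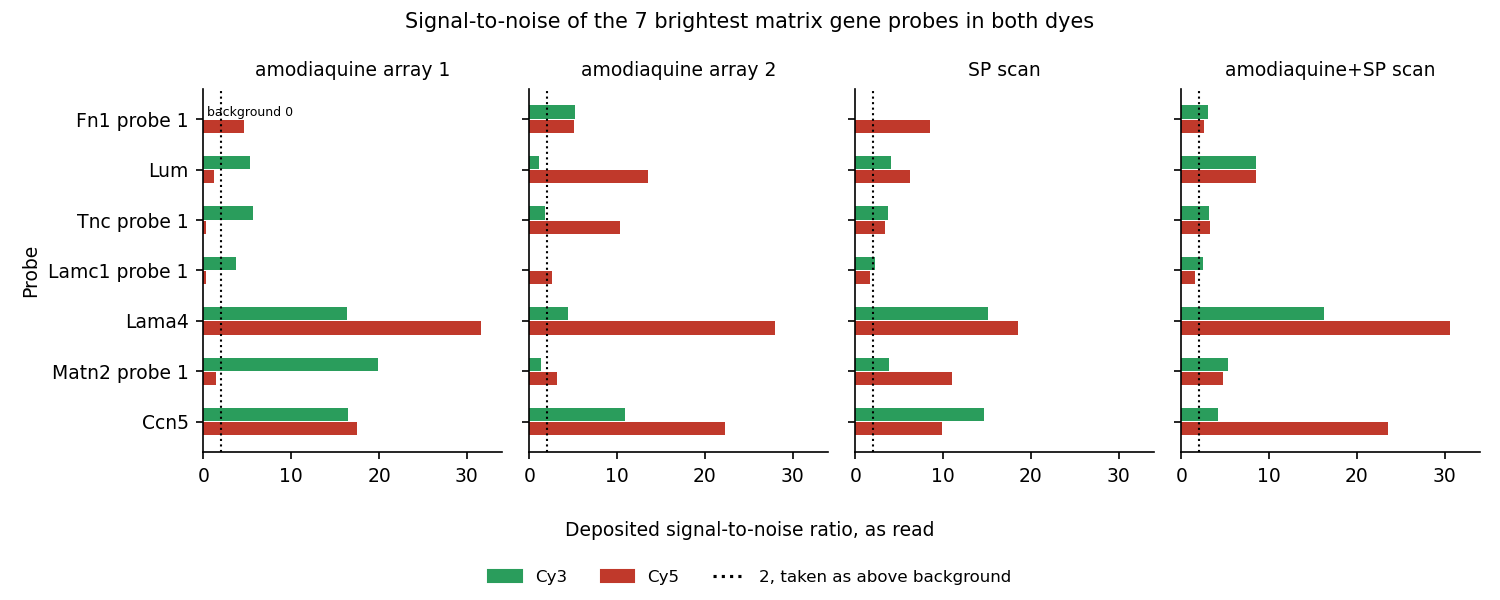
Deposited signal-to-noise ratio (x axis, no unit) of the 7 probes with the highest mean rank (y axis) in Cy3 (green) and Cy5 (red), with 1 panel per scan and a dotted line at 2. Lama4 and Ccn5 pass 2 in both dyes of every panel, and Lum, Tnc probe 1 and Matn2 probe 1 pass it in 1 dye of each amodiaquine array.

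Fibronectin and matrilin-2 were each carried by 1 bright probe. Fn1 probe 1, in block 32, was in register in none of the 6 files. Its foreground values were 1152 in Cy3 and 6281 in Cy5 on amodiaquine array 1, where the Cy3 background was recorded as 0, and 4570 and 8148 on array 2. The SP scan gave 2306, just under its Cy3 background of 2329, and 6486 in Cy5. The scan of both drugs gave 3315 and 3829. Fn1 probe 2, of the same record in block 31, had a Cy3 foreground of 8353 on amodiaquine array 1, again over a background of 0, and Cy5 signal-to-noise between 0 and 1.31 in the 4 scans. On realignment its mean rank went from 0.621 to 0.365. Matn2 probe 1, in block 10, had signal-to-noise of 19.9 in Cy3 and 1.38 in Cy5 on amodiaquine array 1 and 1.34 and 3.17 on array 2. It had 3.81 and 11.1 in the SP scan and 5.31 and 4.72 in the scan of both drugs. Matn2 probe 1 was above background in both dyes only in these last scans, whose block 10 was in register. On the amodiaquine arrays block 10 was not in register by that count, but realigning left both its dyes in place. Matn2 probe 2 has the same record and a mean rank of 0.545. Matn2 probe 3, from another record, has 0.367.

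The type I collagen probes were dim, while that of lumican was bright. Col1a1 has 1 probe, in block 5, whose signal-to-noise on the 4 scans was at most 2.24 in Cy3 and 1.75 in Cy5. Block 5 was in register in none of the 6 files. In the second SP file its Cy3 foreground was 18731, and in the second file of both drugs 21454, against 2163 and 2037 in the first files of the same scans. Read at the shifted place, the second files gave 2236 and 1826. The 4 Col1a2 probes, all from 1 record, lay in blocks 35, 13, 21 and 26, with mean ranks of 0.523, 0.432, 0.424 and 0.412. Only Col1a2 probe 1 passed 2, in Cy5 of both files of the 2-drug scan (3.54 and 3.12) and in Cy3 of the second SP file (2.41). Neither type I collagen gene passed the filter for the amodiaquine test. Lum, in block 21, had foreground values of 3668 in Cy3 and 1192 in Cy5 on amodiaquine array 1, and 776 and 10806 on array 2. It had 4565 and 6009 in the SP scan and 5978 and 10259 with both drugs. On both amodiaquine arrays the low dye of Lum was the one labelled as amodiaquine.

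Over all named genes, probes of the same gene agreed weakly in brightness, and the member pairs showed no positive correlation. The 5 genes with several probes give 22 pairs, 20 of them from the same sequence record. Their median difference in mean rank was 0.176 as read and 0.201 realigned, and that of all 9834 pairs of named probes 0.152 and 0.16. Over all pairs of named probes the rank correlation was 0.095 as read and 0.08 realigned, and over the 22 member pairs it was -0.17 and -0.36. These points share scans and, in part, blocks and genes. By gene, the median gap of realigned ranks was 0.0894 for Col1a2, where all 4 probes were dim. It was 0.232 for Lamc1, 0.314 for Tnc, 0.383 for Matn2 and 0.439 for Fn1, each with 1 bright probe. The amodiaquine ratios of a gene's probes had the same sign in 10 of the 22 pairs (45.5%), against 49.3% of all pairs. Realigned, the signs were the same in 8 of 22 (36.4%), against 49.1%. No member gene with several probes had a second bright probe, and how often this holds over all named genes was not counted. A check of the names gave the same weak link: the rank of a probe and the mean rank of its gene's other probes correlated at 0.0995 over 9462 probes. At 48 shifted positions this correlation ranged from -0.0365 to 0.0418, and with names by spot number it was 0.0033. Taken block by block, it was highest at no shift in 13 of 48 blocks, and of the blocks holding member probes only in block 25, that of Ccn5.

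For amodiaquine against vehicle, no matrix gene passed the test. The limma fit over the 2 arrays took in 3638 probes with signal-to-noise of at least 2 in at least 1 dye of each array. It called 0 probes at a Benjamini-Hochberg adjusted p under 0.05 (0% called) and had 94 at an unadjusted p under 0.05 (2.58%). The 7 member probes tested were 1 for each gene but Col1a1 and Col1a2, and 0 had an unadjusted p under 0.05. All had a limma adjusted p of 0.9999. The mean log2 ratio was below 0 for 6 of the 7, with a median of -0.527, beside 904 of 1900 named genes and a median of 0.0225. Of the member probes, Lum, Tnc probe 1, Matn2 probe 1 and Lamc1 probe 1 passed the filter on each array only in the dye labelled as vehicle. Passing in that way favours a ratio below 0, so no conclusion on the members is drawn from this count. Above background in both dyes on both arrays were Fn1 probe 1 at 0.28, Lama4 at -0.18 and Ccn5 at -0.0005. For Fn1 probe 1 the Cy3 ratio of array 1 was taken over a recorded background of 0. Leaving such ratios out, array 1 held 2 member probes above background in both dyes, in place of 3. The sign was the same on both arrays for 3 of 7 member probes and for 35.2% of all tested probes. Both arrays showed a decrease of at least 1.5-fold for 0 of the 7 (3.68% of all) and an increase of that size for 0 (3.35%).

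Array by array, the log2 ratio of amodiaquine over vehicle of Tnc probe 1 was -1.93 and -0.33, mean -1.13 ± 0.68 (limma SE, n = 2). Lum had -1.60 and 0.23, mean -0.68 ± 0.72. Lamc1 probe 1 had -0.55 and -0.59, mean -0.57 ± 0.53. So, of these probes, those of Lamc1 and Tnc were below 0 on both arrays and that of Lum was not. Each had passed the filter only in the dye labelled as vehicle. Such passing favours ratios below 0, so no conclusion is drawn from these signs. Matn2 probe 1 had -1.27 and 0.22, mean -0.53 ± 0.66. Lama4, above background in both dyes, was also below 0 on both arrays, with -0.18 on each, mean -0.18 ± 0.53. Fn1 probe 1 had 0.87 and -0.31, mean 0.28 ± 0.61. Ccn5 had 0.48 and -0.48, mean -0.0005 ± 0.587, so its Cy5 over Cy3 ratio was the same on both arrays before turning by the labels. Ranks of foreground intensity, without background correction, correlated between the arrays at 0.517 in Cy5 and -0.18 in Cy3 as read, over all spots. Realigned, these correlations were 0.615 and -0.098. Differences in level between blocks enter them. Across all tested probes the turned ratios of the arrays correlated at -0.153 as read and -0.335 realigned. The direction of the amodiaquine comparison is therefore not settled by the data. With no turning, the mean log2 Cy5 over Cy3 was 0.48 for Ccn5, 0.59 for Fn1, -0.003 for Lama4, 0.02 for Lamc1, -0.92 for Lum, -0.74 for Matn2 and -0.80 for Tnc.

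**Figure D3:**
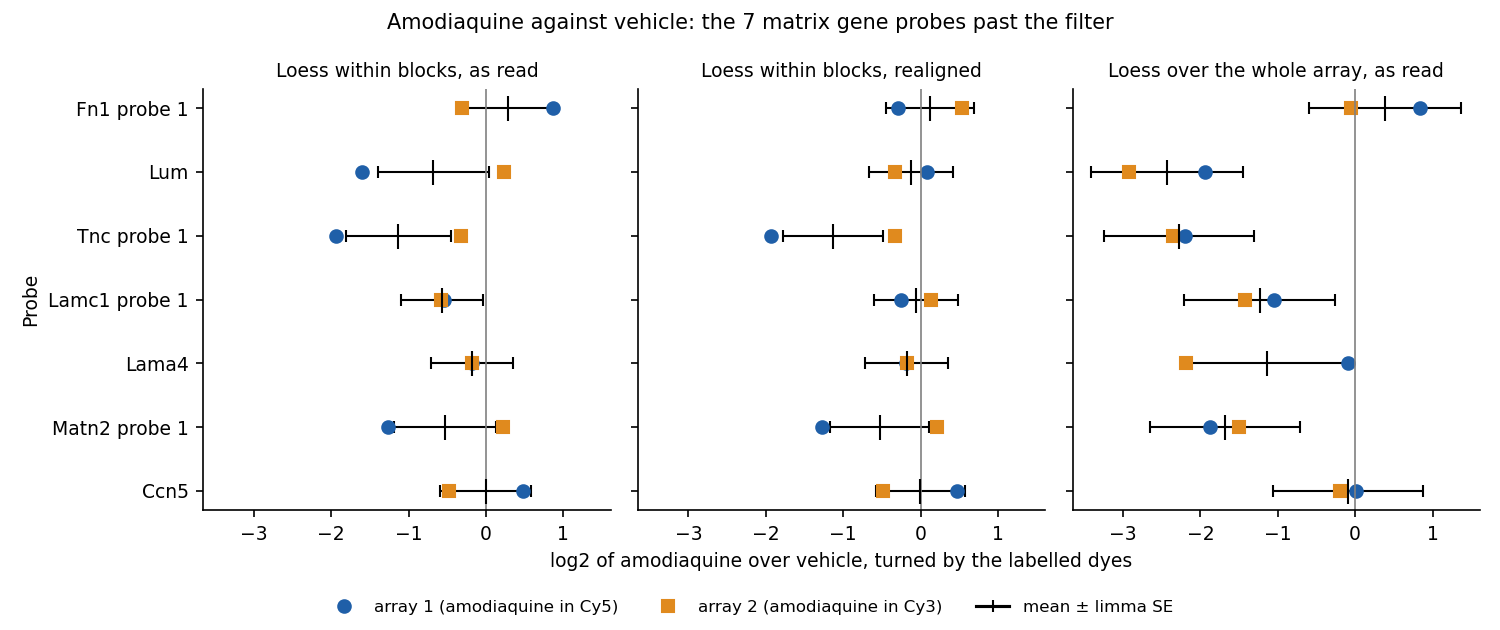
Log2 ratio of amodiaquine over vehicle (x axis) of the 7 tested probes (y axis) on array 1 (blue circles) and array 2 (orange squares), with the mean and its limma SE, under 3 treatments of the values. Lum moves from -0.68 as read to -0.12 realigned and -2.43 with loess over the whole array. Tnc probe 1 and Lama4 stay below 0 on both arrays in each panel, but Tnc probe 1 passed the filter only in the dye labelled as vehicle.

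In block 21, which holds Lum, Lamc1 probe 1 and Col1a2 probe 3, the grid was displaced on both amodiaquine arrays. There Cy5 was displaced by 1 row on array 1 and Cy3 by 1 row on array 2, which is the dye labelled as amodiaquine each time. Of the 58 tested probes of block 21, 7 were at least 1.5-fold down on each array (12.1%), against 3.68% of all tested probes. Realigned, the figures were 2 of 51 (3.92%) and 2.07%, with 1.85% of all tested probes up by that much. Read at the shifted place, the Cy5 foreground of Lum on array 1 was 7971 in place of 1192, and its log2 ratios were 0.08 and -0.33, mean -0.12 ± 0.54. Those of Lamc1 probe 1 were -0.25 and 0.13, mean -0.06 ± 0.54. Tnc probe 1, in a block in register on both arrays, kept -1.13 ± 0.65, and Matn2 probe 1 and Lama4 kept -0.53 and -0.18. At the shifts of the register count instead, Lama4 had -0.34 and Matn2 probe 1 was not tested. For the realigned values the member median was -0.125, and 2 of 7 member probes had the same sign on both arrays, against 28% of all tested probes.

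The ratios also changed with the normalisation. With loess, a smooth correction of the ratio for brightness, fitted over the whole array instead of within blocks, the means were -2.43 ± 0.98 for Lum, -2.28 ± 0.97 for Tnc, -1.68 ± 0.97 for Matn2, -1.23 ± 0.97 for Lamc1 and -1.14 ± 1.02 for Lama4. Then 5 of 7 member probes were below 0 on both arrays, against 24.7% of tested probes, and 4 of 7 were at least 1.5-fold down on each, against 14.7%. Those 4 were Lum, Tnc probe 1, Matn2 probe 1 and Lamc1 probe 1, which had passed the filter only in the dye labelled as vehicle. Such passing favours low ratios, so no conclusion is drawn from these shares. The limma adjusted p was still 0.755 for Lum and 0.803 for Tnc, with unadjusted p of 0.032 and 0.040. That fit called 2 probes, neither a member (0.055%). The other tested probes of these blocks had low ratios as well. On array 2, the median of the other probes was -2.23 beside Lum (-2.92), -1.87 beside Tnc probe 1 (-2.36), -1.76 beside Lama4 (-2.19), -2.28 beside Lamc1 probe 1 (-1.42) and -1.82 beside Matn2 probe 1 (-1.50). On array 1 these medians lay between -0.736 and -0.003. There 12.7% of the other 55 probes of block 3 lay below Tnc probe 1 and 8% of the 75 of block 10 below Matn2 probe 1. The log ratios in the authors' deposited table, already turned by the labels, were -2.84 and -3.47 for Lum, -4.11 and -2.40 for Tnc probe 1, and -2.36 and -1.28 for Matn2 probe 1. They were 0.23 and -2.01 for Lama4, 1.26 and 0.29 for Fn1 probe 1 and 0.32 and -0.10 for Ccn5. Lamc1 probe 1 had -3.27 on array 1 and no value on array 2 in the authors' deposited table.

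**Figure D4:**
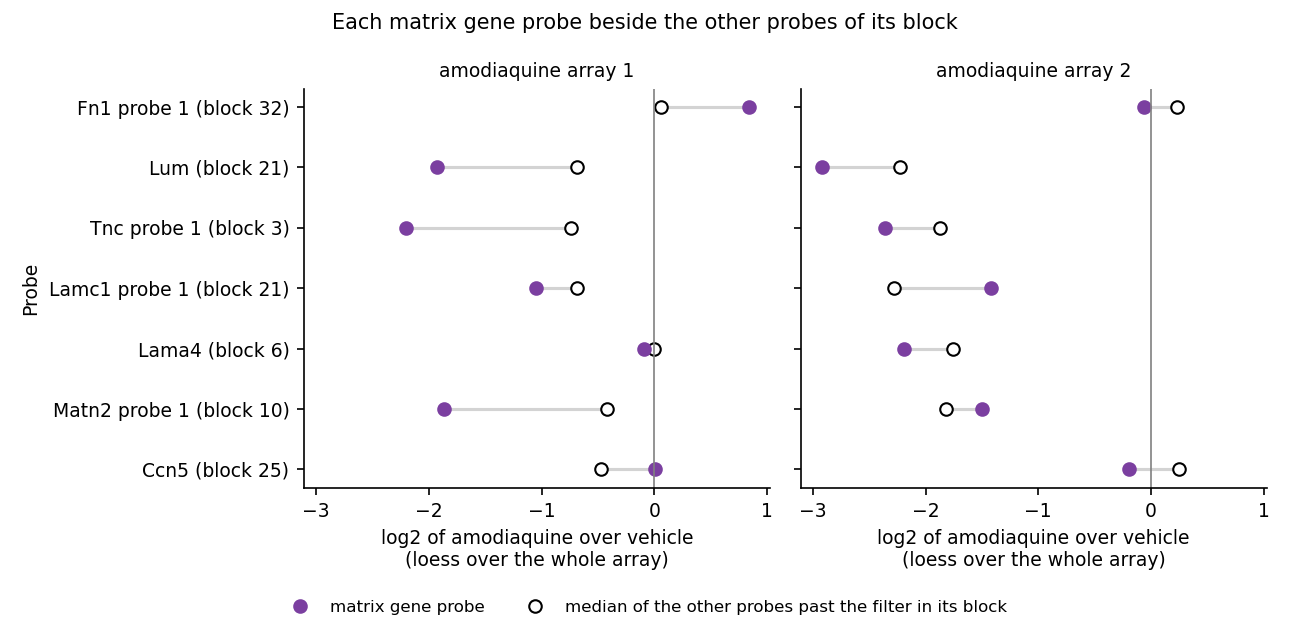
Log2 ratio of amodiaquine over vehicle with loess over the whole array (x axis) for each tested member probe (filled) and the median of the other tested probes of its block (open), by array (panels). On array 2 the medians beside Lum, Tnc, Lamc1, Lama4 and Matn2 lie between -2.28 and -1.76, and those beside Fn1 and Ccn5 at 0.23 and 0.25.

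In the SP scan 5 member probes were above background in both dyes, all but Lum in blocks in register. Matn2 probe 1 had a log2 Cy5 over Cy3 of 1.18, and it was the only one of the 5 past 1.5-fold, a size reached by 20.8% of all probes that were in register and above background (21.3% realigned). Its foreground values were 4235 and 10830, and the second file held exactly these values after realignment, with a ratio of 1.23. As read, the second file gave -0.77 for it, from another spot. Ccn5 had 0.36, Lum 0.35, Lama4 0.06 and Tnc probe 1 -0.03. Realigned, the second file gave 0.38 for Ccn5, 0.09 for Lama4 and 0.05 for Tnc probe 1, from the same foreground values. For Lum it gave 2.84, from the same Cy5 value but another Cy3 value. Wide ratios with Cy3 at background were 2.82 for Col1a2 probe 1 and 2.56 for Fn1 probe 1, whose Cy5 signal-to-noise was 8.54.

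In the scan of both drugs 6 member probes were above background in both dyes, all but Fn1 probe 1 in blocks in register. Ccn5 had a log2 Cy5 over Cy3 of 1.93 and was the only one past 1.5-fold (18.4% of probes in register and above background, 19.3% realigned). Lama4 had 0.50, Lum 0.25, Tnc probe 1 0.22, Matn2 probe 1 -0.06 and Fn1 probe 1 -0.07. The Ccn5 ratio was thus the widest of the 6 and the one with the lowest Cy3 value of that gene. The second file did not bear on it: at Ccn5 it held a Cy3 foreground of 1358 and a Cy5 foreground of 7312, neither foreground value of the first file occurs anywhere in it, and its ratio was 5.22. Lama4 had the same Cy3 value once realigned but a Cy5 foreground of 7462 in place of 24606, and its ratio in the second file was 2.78 as read and -1.06 realigned. Fn1 probe 1, Lum, Tnc probe 1 and Matn2 probe 1 had the same foreground values in both files once realigned. Their ratios in the second file were -0.37, 0.36, 0.55 and -0.11, which differ from those of the first although the foreground values do not. For both drugs the median absolute difference between the files was 0.417 as read, over 21 probes, and 0.36 realigned, over 20. For SP it was 1.01 as read, over 21 probes, and 0.267 realigned, over 19. With 1 scan per treatment there is no test. The files label that scan once with the treated sample in Cy5 and once in Cy3, so the Ccn5 and Matn2 ratios have no settled direction.

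**Figure D5:**
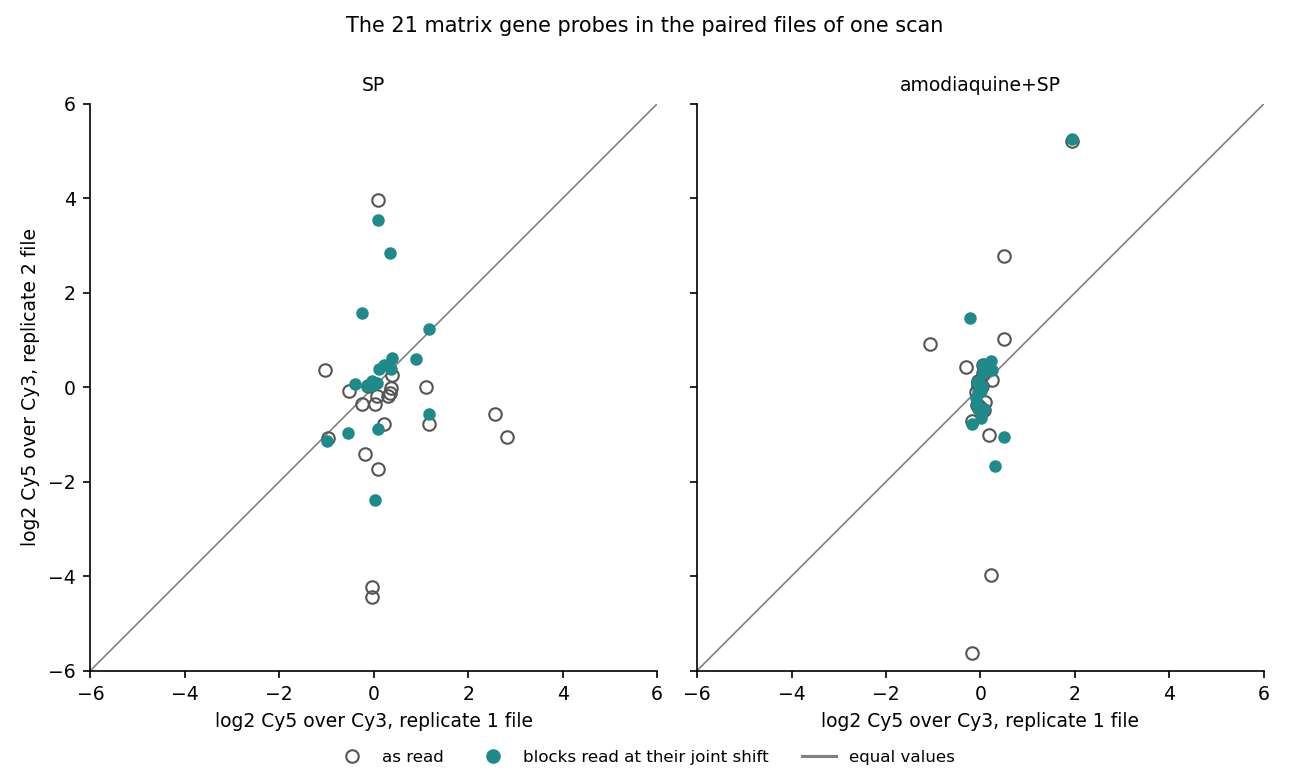
Log2 Cy5 over Cy3 of the 21 probes in the first file (x axis) and the second file (y axis) of the SP scan and of the scan of both drugs, as read (open) and realigned (filled), with a line of equal values. Realigned values in both files exist for 19 probes of SP and 20 of both drugs. Matn2 probe 1 of SP moves from -0.77 to 1.23 on the y axis and then lies by the line, whereas Ccn5 with both drugs stays at 5.26.

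Other matrix genes on the array were read from lists of known members, with ranks as read. Of 34 further collagen genes 18 were on the array, with a median rank of 0.536 for each gene's brightest probe, and 1 passed the filter: Col4a5, of basement membrane collagen, at -0.56 ± 0.60 for amodiaquine. The brightest of that list were Col4a2 at 0.781, Col12a1 at 0.746 and Col4a5 at 0.698. Realigned, Col15a1 was brightest at 0.990, and Col4a2 had 0.852. Of the collagen-processing enzymes 14 of 25 were present and 4 were tested, with a median of -0.06. P3h1, a prolyl hydroxylase, had the brightest spot at 0.976 and a ratio of -0.16 ± 0.53, Pcolce, which enhances procollagen cleavage, 0.844 and 0.12 ± 0.55, Bmp1, a procollagen protease, -0.09 ± 0.77, and Adamts14 0.840. Of other laminin and basement membrane genes 15 of 17 were present and 4 tested, with a median of 0.05. Lama5, a laminin alpha chain, had rank 0.922 and -0.23 ± 0.54, but 1.03 realigned. Ntn4 had 0.795 and 0.24 ± 0.59, and Sparc 0.789 and 0.12 ± 0.57. The limma test called 0 genes of these lists, and none had an unadjusted p under 0.05.

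Among 27 of 51 other glycoprotein and proteoglycan genes 6 were tested, with a median of 0.20. Mgp, an inhibitor of calcification, had 0.74 ± 0.53, the proteoglycan Vcan 0.84 ± 0.70, and Bgn, a relative of lumican, -0.30 ± 0.55 as read and -1.46 realigned. Fbln1, Bgn and Tnxb had the brightest spots, at 0.829, 0.826 and 0.806, while realigned Bgn had 0.994 and Ccn2 0.910. For matrix receptors 22 of 26 were present and 5 tested, with a median of 0.14. Ddr1, a collagen receptor, had 1.91 ± 0.74 at an unadjusted p of 0.067 and a limma adjusted p of 0.9999, and its probe no longer passed the filter once realigned. Dag1 had 0.87 ± 0.82 and the integrin chain Itga4 0.14 ± 0.54. Ddr1, Sdc1 and Ddr2 had the brightest spots, at 0.920, 0.885 and 0.821. Matrix remodelling genes (18 of 32 present, 3 tested, median -0.20) included Mrc2 at -0.36 ± 0.56, Ctsl at -0.20 ± 0.60 and the protease inhibitor Timp3 at 0.19 ± 0.77, with Ctsl (0.849), Adamts4 (0.789) and Mrc2 (0.762) brightest. Of TGF-beta signalling genes 14 of 21 were present and 3 were tested. They were the receptor Tgfbr1 at 1.29 ± 0.58, Ltbp1 at 0.20 ± 0.54 and Smad2 at 0.08 ± 0.53, and Tgfbr1, Smad2 and Smad4 had the brightest spots at 0.788, 0.739 and 0.710. These lists too held 0 calls and 0 unadjusted p under 0.05 with limma.

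Markers of the cells that make matrix were few on the array. Of 11 fibroblast, mesangium and smooth muscle markers 5 were on the array, and only Vim was tested, at -0.52 ± 0.53 for amodiaquine with a mean rank of 0.968. Acta2 had a rank of 0.752 and Des of 0.573. Of the endothelial markers 6 of 7 were present, with Pecam1 tested at 0.02 ± 0.54. Of the immune markers 4 of 8 were present, with Lyz2 tested at 1.30 ± 1.47 as read and -0.02 realigned. One podocyte marker of 5, Podxl, was present, at rank 0.571, and was not tested. The part of these cells in the member ratios was not tested. Of the proximal tubule markers 8 of 14 were present, with ranks from 0.555 (Gatm) to 0.943 (Slc27a2), and of thick limb and distal markers 3 of 8, from 0.487 (Slc12a1) to 0.956 (Umod). Of the liver markers 3 of 7 were present, from 0.553 (Ttr) to 0.690 (Alb), and of skeletal muscle Des had 0.573 and Mylpf 0.299. The ranges of kidney and other-tissue markers overlapped.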

How the data were processed

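The submitters' design text names a Molecular Dynamics scanner with ImageQuant 5.0, ArrayVision 8.0 for extraction and Avadis 4 for LOWESS-normalised log ratios. The files deposited by the authors give, per spot and dye, foreground and background intensity, their difference and a signal-to-noise ratio. The authors' deposited series table gives log2 ratios. Its slope on the scanner log ratios was 1.02 on amodiaquine array 1 and -1.12 on array 2, so its sign is already turned by the labels. Scale and centring are not stated, and its column medians lie between -0.0684 and 0.115. Background correction here was normexp with an offset of 50, then loess within blocks, with limma 3.58.1 in R 4.3.3. The limma test took the mean of the amodiaquine pair, turned by the labelled dyes (1 residual degree of freedom, prior 2.67). Its estimate was checked on simulated pairs with independent errors, whereas the turned ratios of the real arrays correlated at -0.153. That check is not used as a measure of the power of the test. Missing background values, 58 spots of Cy5 in the first SP file, were left out. Cy3 background was 0 at 7079 spots of amodiaquine array 1, where the signal-to-noise has no upper bound.

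Block shifts of up to 3 rows or columns were scored against files of other treatments for the register count, and against all other images of the block for realigned values. Names follow GEO's platform annotation, with probe block p (from 0) at scanner block 12(p mod 4) + floor(p/4). Of the 23040 spots 15114 have 1 gene, 206 several and 7720 none, and 8991 of 9107 genes matched RefSeq GRCm38.p6. The number of arrays limits the precision. The members, lists and tests were chosen with earlier results of these data known. Of each list, the 3 genes with the smallest limma p and the 3 brightest were named. Alternatives covered normalization, background, filter, sign, fit, grid and names.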

Additional observations from a re-analysis of the deposited data

How the results depend on the processing

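The count of called probes for amodiaquine, 0, became 2 with loess over the whole array and stayed 0 under the other 12 alternatives, including all 6 files in 1 fit and each amodiaquine file left out in turn (0 to 0). No member probe was called under any of the 13. Unadjusted limma p under 0.05 numbered 94 of 3638 as reported. Otherwise the smallest count was 7, of 662 probes of blocks in register on both arrays. The largest was 755 of 3666, realigned with the sign not turned. That setting takes the mean of Cy5 over Cy3, not of amodiaquine over vehicle. Member ratios changed sign in 12 of 82 alternative values, and the cause was not tested. Not all of the 82 could change. The ratio stays the same by construction with no filter (7 values), both dyes above background (3) or blocks in register (2). It also does with all 6 files and a dye term (7). Without amodiaquine replicate 1 and without replicate 2, in that order, the ratio was 0.398 and -1.76 for Lum, 0.615 and -0.973 for Lama4, 0.316 and -1.37 for Matn2, 1.39 and -1.39 for Ccn5, and -2.33 and 0.071 for Tnc. These come from a fit to all files, where the lone array is assumed to vary like the others. That fit counts each scan of SP and of both drugs as 2 files with opposite labels, and its spread and dye term rest on them. With the sign not turned it was 0.019 for Lamc1 and 0.48 for Ccn5. With the sign not turned and blocks realigned it was -0.41 for Fn1, 0.21 for Lum and 0.48 for Ccn5. Ccn5, at -0.0005, also became 0.022 with background subtracted and 0.11 with the authors' values.

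Counts of member probes above background in both dyes moved with names by spot number in the first SP file (from 5 to 2), its second (1 to 2), and the files of both drugs (6 to 2 and 1 to 3). Realigned, they moved from 3 to 5 on amodiaquine array 1, from 1 to 4 in the second SP file and from 1 to 5 in the second of both drugs, which had 0 at a minimum of 3. Of the member probes above background in both dyes of the first file, 5 for SP and 6 for both drugs, 1 per scan was past 1.5-fold. Of the same probes in the other file of the scan, 2 (SP) and 3 (both drugs) were past it as read, and 2 and 2 realigned. Their background in that other file was not checked, and the share over all its probes was not counted. Matn2 probe 1 had -0.77 as read in the second SP file, in place of 1.18. The ratio of each array already pairs treated with vehicle cDNA. Files were not paired further by replicate number, because these numbers follow accession order and coincide with the dye orientation. Reading each dye at its own best shift, the alternative planned for the grid, gave 22 unadjusted p under 0.05 and no change of sign in the 6 member probes tested. The joint realignment and its combinations were added after the data were seen. At most 7 of the 21 probes passed in both dyes of any file.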
